A study of Homo sapiens with 26 samples.

Results

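S100 proteins and annexins were described here across 26 single-cell-derived cell lines (SCDCLs) of pancreatic ductal adenocarcinoma, with 35 of the 41078 genes in the expression table as members. Members were protein-coding genes chosen by symbol: 20 genes of the S100 family, 13 annexins, and 2 genes that share the letters but are neither, S100PBP, which encodes a binding partner of S100P, and ANXA2R, which encodes a receptor for annexin A2. The levels are in TPM, which corrects for transcript length, so that genes can be compared within a library.

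S100 proteins are small EF-hand proteins that bind calcium, mostly as dimers, and then expose a surface that binds target proteins. Some also act outside the cell, where S100A8 and S100A9 form calprotectin, a heterodimer abundant in myeloid cells and in stressed epithelium. Annexins bind acidic phospholipids of membranes when calcium is present, and several of them carry an S100 dimer at their N-terminus, the best known complex being that of S100A10 with annexin A2. Most S100A genes lie side by side in the epidermal differentiation complex of 1q21, and S100P, S100A4 and S100A6 are commonly studied in pancreatic cancer.

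The study asked how clones of 1 tumor cell population differ in their response to gemcitabine, a nucleoside analog. SCDCLs were raised by limiting dilution from BxPC3 (12 libraries by label), a line known to have lost SMAD4, and from Panc-1 (14 libraries by label), a line that keeps it. Both parental lines are established epithelial tumor lines grown in high glucose medium with serum, and BxPC3 is classed as classical and Panc-1 as basal-like. Each SCDCL is 1 clone with 1 library and no repeat library. Gemcitabine is the treatment entry of all 26 labels, but the methods use the drug in viability assays in separate wells and collect RNA once an expanding clone neared confluence in a flask, so whether the sequenced cells had met the drug was not clear. No library labelled as untreated and no parental library was analysed here, and the labels do not give the response of an SCDCL.

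The labels did not match the SMAD4 transcript. SMAD4 was at most 0.0440 TPM, at most 3.98 estimated counts, in 12 libraries, of which 5 were labelled BxPC3 and 7 Panc-1. It was 28.1 to 52.2 TPM in the other 14, of which 7 were labelled BxPC3 and 7 Panc-1. These are called SMAD4-null and SMAD4-expressing libraries. The epithelial adhesion gene CDH1 was 90.8 to 198 TPM in the SMAD4-null libraries and 0.338 to 7.74 TPM in the SMAD4-expressing ones, and VIM, which encodes vimentin, was 1.42 to 73.2 and 3047 to 4526 TPM, so that both split the libraries in the same way. Totals ranged from 27035724 to 34945608 estimated counts per library, with a median of 29623513. Because the sets were defined by a measured transcript with which many other transcripts divide, no test was made between them. Levels are given as the lowest, median and highest library of each set, beside the share of all genes whose ranges also lay apart.

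Promoter sequences are shown for 4 members with large differences between the sets, S100A9, S100A4, S100A2 and ANXA10. Each run is the 250 bases before an annotated start (RefSeq, GRCh38.p14), printed 5′ to 3′ on the strand of the gene. Capitals mark the letters TATAAA, a core promoter element read on the sense strand, or TGANTCA, the letters bound by AP-1 factors, searched on both strands. The 2 motifs cannot overlap in these runs, since no run held both.
S100A9, chr1:153357604-153357853, plus strand: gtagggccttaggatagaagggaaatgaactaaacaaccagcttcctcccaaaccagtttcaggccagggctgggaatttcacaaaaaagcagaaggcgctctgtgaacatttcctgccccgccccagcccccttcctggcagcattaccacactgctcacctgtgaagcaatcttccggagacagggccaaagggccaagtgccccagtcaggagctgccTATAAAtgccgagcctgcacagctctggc
S100A4, chr1:153545807-153546056, minus strand: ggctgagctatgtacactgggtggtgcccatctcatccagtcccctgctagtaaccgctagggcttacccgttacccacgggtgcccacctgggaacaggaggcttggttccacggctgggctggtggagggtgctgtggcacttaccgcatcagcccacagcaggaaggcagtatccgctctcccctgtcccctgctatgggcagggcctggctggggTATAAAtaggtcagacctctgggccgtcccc
S100A2, chr1:153565845-153566094, minus strand: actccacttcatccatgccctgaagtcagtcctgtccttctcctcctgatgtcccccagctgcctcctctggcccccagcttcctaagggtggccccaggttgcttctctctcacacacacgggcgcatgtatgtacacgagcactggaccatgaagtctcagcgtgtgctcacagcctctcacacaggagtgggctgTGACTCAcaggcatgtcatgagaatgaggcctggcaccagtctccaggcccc
ANXA10, chr4:168092287-168092536, plus strand: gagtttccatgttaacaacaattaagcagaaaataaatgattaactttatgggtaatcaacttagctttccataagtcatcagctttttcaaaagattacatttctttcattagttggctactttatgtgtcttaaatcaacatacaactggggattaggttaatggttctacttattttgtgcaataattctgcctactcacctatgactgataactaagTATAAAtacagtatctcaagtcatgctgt
In S100A9 and ANXA10 the TATAAA began 29 bases before the start, and in S100A4 it began 31 bases before. The S100A2 window shown, 1 of 2 for this gene, held TGANTCA 52 bases before the start and no TATAAA. Which start of S100A2 these cells used was not tested. Of all 35116 windows of this length, 6.80% held TATAAA and 6.57% held TGANTCA. A window was found for 32 of the 35 members (46 windows, since some genes have several starts), and 14 members had TATAAA and 6 had TGANTCA in at least 1 window. The shares are per window and the member counts are per gene over all its windows, so the 2 cannot be compared directly. These matches describe letters only.

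Of the 35 members, 30 reached 1 TPM in at least 1 library, and the TPM ranges of 13 of these did not overlap between the sets. Of the 13, 10 were higher in the SMAD4-null libraries (S100A2, S100A9, S100A13, S100A14, S100A16, ANXA1, ANXA3, ANXA8, ANXA8L1 and ANXA10) and 3 were higher in the SMAD4-expressing libraries (S100A4, S100A6 and ANXA4). Among all 18663 genes reaching 1 TPM the ranges of 26.6% lay apart, 13.2% with the SMAD4-null libraries higher and 13.3% with the SMAD4-expressing libraries higher. The members stood at 43.3%, a description without a test. By family, 5 S100 genes were higher in the SMAD4-null libraries, 2 were lower and 9 overlapped. Among the annexins 5 were higher, 1 was lower and 6 overlapped. ANXA8 and ANXA8L1, near-identical copies with an uncertain split of reads, were counted as 2 of these. The median absolute log2 difference of set medians, on log2(TPM + 1), was 1.03 over the 30 members and 0.54 over all genes. Scaling by TMM or by DESeq2 size factors instead of TPM took S100A13 out of this group and brought in S100PBP and ANXA2R, both higher in the SMAD4-expressing libraries.

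**Figure D1:**
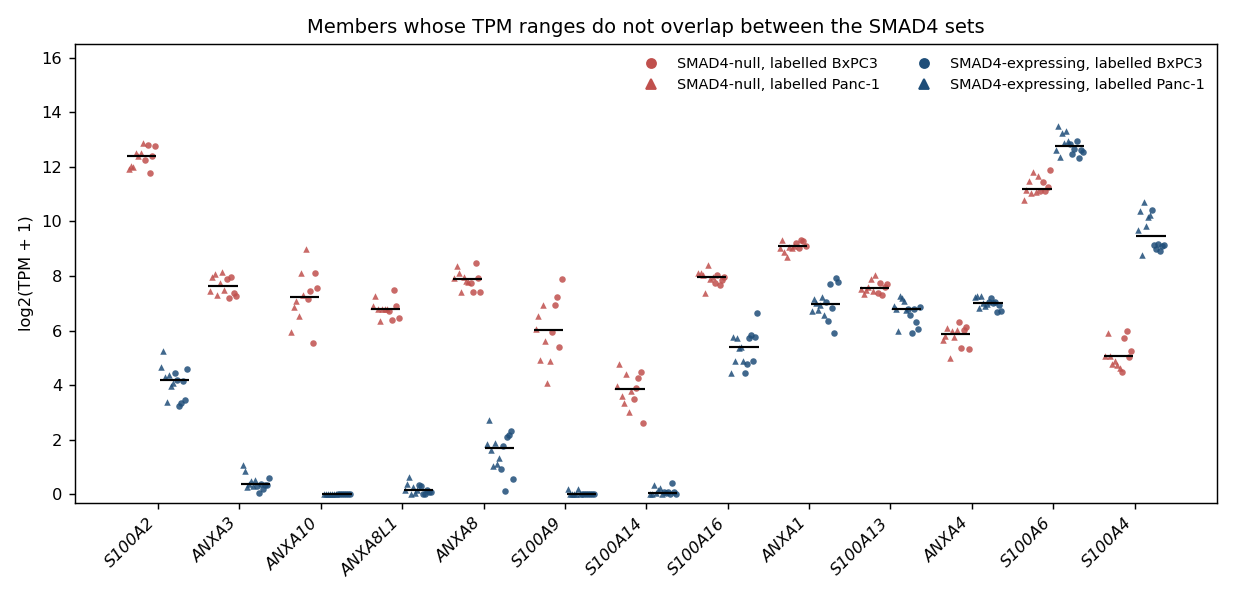
TPM of the 13 members whose ranges did not overlap, on a log2(TPM + 1) axis, with 1 point per library and a bar at the median of each set. Circles are libraries labelled BxPC3 and triangles those labelled Panc-1, red SMAD4-null and blue SMAD4-expressing. S100A2 and ANXA10 stood far apart, while S100A13 and ANXA1 lay closer together.

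S100A2 (ENSG00000196754), a mostly nuclear S100 protein of epithelial cells that binds p53, had at least 64.7 estimated counts in every library, and among members measured that well its medians differed most. It was 3537, 5408 and 7434 TPM (lowest, median and highest) in the SMAD4-null libraries and 8.37, 17.1 and 37.4 TPM in the SMAD4-expressing libraries. The medians differed 317-fold, and no library of either set came near the range of the other. In the SMAD4-null libraries S100A2 was by median the 10th most abundant of all genes.

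S100A6 (ENSG00000197956), or calcyclin, took the place of S100A2 in the other set. Its TPM was 1779, 2343 and 3730.3 in the SMAD4-null libraries and 5073, 6890.4 and 11680.2 in the SMAD4-expressing libraries, a 2.94-fold difference of medians. All 14 SMAD4-expressing libraries lay above every SMAD4-null library, yet S100A6 was abundant everywhere, ranking 42nd of all genes in one set and 4th in the other. S100A2 exceeded S100A6 in 12 of 12 SMAD4-null libraries, by 1.44 to 2.75 times. In the SMAD4-expressing libraries S100A6 exceeded S100A2 by 255 to 1046 times.

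S100A4 (ENSG00000196154), also called metastasin, binds non-muscle myosin and is widely used as a marker of mesenchymal cells. It was 21.6, 32.3 and 62.0 TPM in the SMAD4-null libraries and 438, 698 and 1685 TPM in the SMAD4-expressing libraries, 21.6-fold apart by median. Relative to its neighbor S100A6 it amounted to 0.732% to 2.79% in the first set and 7.19% to 18.5% in the second. Within the SMAD4-expressing set, 6 of the 7 libraries labelled BxPC3 lay between 479 and 573 TPM, and BxPC3 15 stood at 1354 TPM. Of the 7 labelled Panc-1, 6 lay between 824 and 1685 TPM and Panc-1 10 stood at 438 TPM. The ranges of the labels thus overlapped through 1 library on each side.

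S100A16, S100A14 and S100A13 are neighbors at the far end of the cluster. S100A16, a broadly expressed member, was 165, 248 and 333 TPM in the SMAD4-null and 20.9, 40.8 and 99.3 TPM in the SMAD4-expressing libraries. S100A14, a member typical of epithelia, was 5.14, 13.3 and 26.7 TPM in the former and 0, 0.0474 and 0.336 TPM in the latter, where 5 of 14 libraries had no count and none had more than 5.89. S100A13, which takes part in the release of proteins that lack a signal peptide, was 156, 188 and 263 against 59.0, 109 and 153 TPM. The lowest SMAD4-null library of S100A13 was thus just above the highest SMAD4-expressing one, and the separation was lost with TMM or DESeq2 scaling.

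S100A9 (ENSG00000163220) and S100A8 (ENSG00000143546), the subunits of calprotectin, were measured almost only in the SMAD4-null libraries. S100A9 was 16.1, 63.8 and 237 TPM there, at 144 to 2057 estimated counts, and 0 TPM in 12 of the 14 SMAD4-expressing libraries, whose counts summed to 1.99. S100A8 was 0, 1.57 and 41.2 TPM in the SMAD4-null libraries and had no count in the other 14, which put it at least 107-fold lower there, taking 3 counts over that set as the floor. Without BxPC3 26, which held 144 of the counts, the bound was 57.8-fold. Counts for S100A8 were low, at most 144 in a library, and 3 SMAD4-null libraries had none. S100A8 stood highest in BxPC3 26 (41.2 TPM) and BxPC3 21 (28.8 TPM). S100A7, or psoriasin, an antimicrobial S100 protein of stressed skin, had counts in 6 SMAD4-null libraries, at most 2.97 TPM and 11.9 counts. These were the 6 libraries with the most S100A8, at 1.81 TPM or more, the others being at 1.33 TPM or less. In bulk RNA, fewer cells of a type and less RNA per cell cannot be told apart.

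Since S100A8 and S100A9 are abundant in myeloid cells, 5 leukocyte markers are given beside them. PTPRC and TYROBP were at or near 0, at most 0.535 and 0.169 TPM in the SMAD4-null libraries, and CSF1R was at most 0.682 TPM. ITGAM was at most 4.12 TPM there and CD14 ranged from 0 to 29.1 TPM. None of the 5 had ranges apart between the sets, 2 reached 1 TPM, and their summed level was 0.334 to 30.3 TPM in the SMAD4-null and 0.650 to 5.91 TPM in the SMAD4-expressing libraries. The part of such cells in the S100A8 and S100A9 levels was not tested beyond these values.

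The 14 S100 genes of the compact cluster lie within 274186 bases of chromosome 1 (GRCh38, chr1:153357854-153632039), in the order S100A9, S100A12, S100A8, S100A7A, S100A7, S100A6, S100A5, S100A4, S100A3, S100A2, S100A16, S100A14, S100A13 and S100A1. Neighbors differed in direction. Of the 12 that reached 1 TPM, 5 were higher in the SMAD4-null libraries, 2 were higher in the SMAD4-expressing libraries and 5 overlapped, beside 13.2% and 13.3% of all genes that were higher in the one or the other set. S100A6 and S100A4 were higher in the SMAD4-expressing libraries, and S100A2, separated by 11849 bases from S100A3, was higher in the SMAD4-null libraries. Between S100A4 and S100A2 lies S100A3, a cysteine-rich member of hair cuticle, whose levels of 10.6, 19.8 and 49.2 TPM and 14.4, 20.1 and 45.7 TPM nearly coincided. S100A3 lies within the annotated span of S100A4 on the same strand, so reads from shared bases could be assigned to either gene. S100A13 and S100A1 overlap on opposite strands, which a strand-specific library can separate where the counting used strand.

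**Figure D2:**
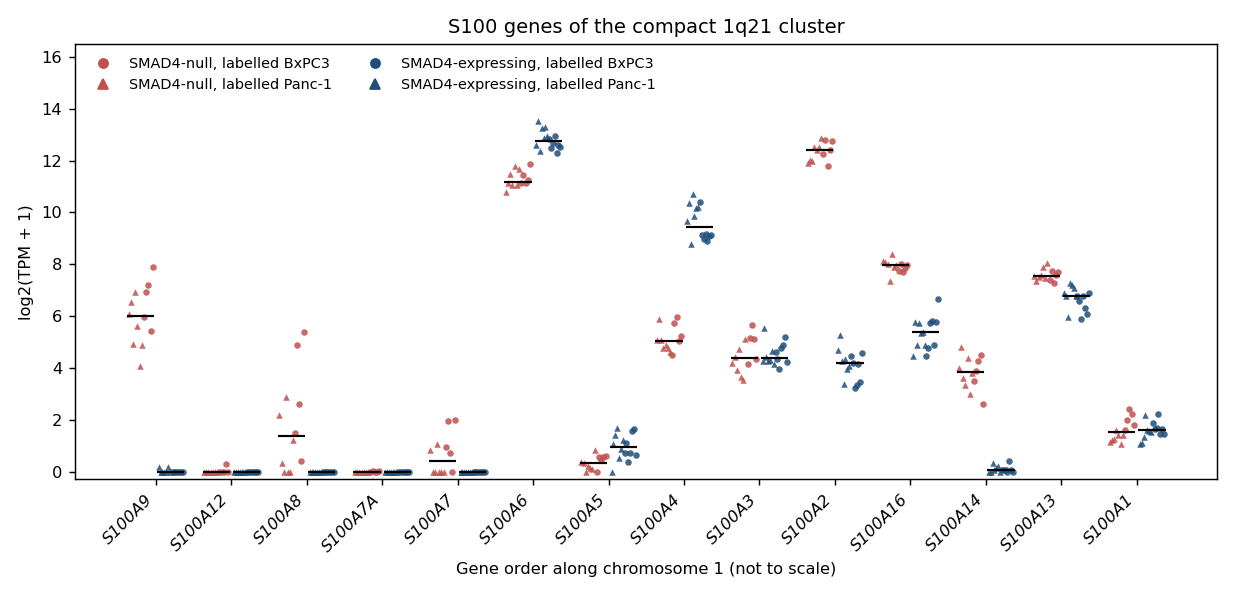
TPM of the 14 S100 genes of the compact 1q21 cluster on a log2(TPM + 1) axis, in their order along chromosome 1 and not to scale, with 1 point per library and a bar at each set's median. Circles are libraries labelled BxPC3 and triangles those labelled Panc-1, red SMAD4-null and blue SMAD4-expressing. S100A6 and S100A4 were higher in the SMAD4-expressing libraries, S100A9, S100A2, S100A16, S100A14 and S100A13 were higher in the SMAD4-null libraries, and S100A3 and S100A1 coincided.

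The genes around the cluster were read as well. Of the 5 protein-coding genes next to each end, which are no members, 5 reached 1 TPM and the ranges of all 5 overlapped between the sets, where 26.6% of all genes lay apart. On the side of S100A1, CHTOP had medians of 65.4 and 80.3 TPM, SNAPIN of 37.7 and 54.3 TPM, ILF2 of 169 and 220.3 TPM and INTS3 of 13.7 and 25.7 TPM in the SMAD4-null and SMAD4-expressing libraries. On the side of S100A9, LORICRIN, PGLYRP3 and PGLYRP4, genes of keratinocytes and of innate defence, had medians of 0 TPM in both sets. Among 7 genes of the fused-type S100 family, large proteins of the cornified skin with an S100 domain such as filaggrin (FLG), none reached 1 TPM.

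S100A10 and S100A11 lie further out on 1q21 and were abundant in every library. S100A10, the partner of annexin A2 that does not need calcium to bind, was 507, 757 and 1052 TPM in the SMAD4-null libraries and 794, 1436 and 2101 TPM in the SMAD4-expressing ones. The ranges overlapped, with 12 of 14 SMAD4-expressing libraries above the highest SMAD4-null library. S100A11, a partner of annexin A1, was 1115, 1399 and 2345 TPM against 729, 968 and 1677 TPM, with overlap. Both belonged to the 5 most abundant members of each set.

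S100P, on chromosome 4, is an S100 protein often raised in pancreatic cancer and a ligand of the receptor AGER. It was 5.52, 31.9 and 193 TPM in the SMAD4-null and 0.655, 2.83 and 5.62 TPM in the SMAD4-expressing libraries. The ranges met only at their ends, between Panc-1 6 at 5.52 TPM and Panc-1 9 at 5.62 TPM, and they lay apart without either library. Panc-1 5 stood at 193 TPM, 3.42 times the next SMAD4-null library, Panc-1 2. It was the only library that stood more than 2-fold from its nearest neighbor at an end of a set's range, among members with a median of at least 5 TPM. S100PBP, whose product binds S100P in the nucleus, was 14.6, 21.5 and 28.7 TPM against 28.3, 36.9 and 47.1 TPM. Its 2 ranges touched, with 13 of 14 SMAD4-expressing libraries above all SMAD4-null ones.

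Among the annexins, ANXA10, a member of gastric epithelium that lacks several calcium-binding sites, was present in 1 set only. It was 45.7, 149 and 511 TPM in the SMAD4-null libraries, at 801 to 10566 estimated counts, and had no count in any of the 14 SMAD4-expressing libraries. Taking 3 counts over that set as the floor, it was at least 16679-fold lower there, relative to library totals. Its level still ranged 11.2-fold among the SMAD4-null clones. ANXA3, an annexin of granulocytes and epithelial tumors, was 144, 196 and 284 TPM against 0.0431, 0.285 and 1.10 TPM.

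ANXA8 and ANXA8L1 are near-identical copies on chromosome 10, so the split of their reads is uncertain and their sum is the safer value. The sum was 251, 347 and 539 TPM in the SMAD4-null libraries and 0.0948, 2.63 and 5.92 TPM in the SMAD4-expressing libraries. ANXA8 alone was 168, 234 and 359 TPM against 0.0948, 2.25 and 5.63 TPM, and ANXA8L1 alone was 80.4, 110 and 180.0 TPM against 0, 0.118 and 0.537 TPM. The ratio of the first to the second was 1.94 to 2.51 over the SMAD4-null libraries.

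ANXA1, a mediator that limits inflammation, was 411, 541 and 639 TPM in the SMAD4-null and 59.6, 125 and 242 TPM in the SMAD4-expressing libraries, 4.33-fold apart by median. ANXA4, an annexin of secretory epithelium, ran the other way at 30.5, 58.2 and 78.4 TPM against 102, 129 and 154 TPM, 2.21-fold apart. It was the only annexin whose range lay higher in the SMAD4-expressing libraries.

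The other annexins expressed in both sets overlapped, and so did ANXA2R, which is no annexin. ANXA2, a scaffold of the cell surface that recruits plasminogen with S100A10, had almost the same median in both, at 1679, 2185 and 2775 TPM and at 1894, 2182 and 2355 TPM. ANXA5, known from the apoptosis assay that uses it to detect phosphatidylserine, was 224, 330.3 and 391 TPM and 283, 346 and 487 TPM. ANXA7 was 75.5, 89.1 and 119 TPM and 83.5, 101 and 116 TPM. The medians of ANXA2, ANXA5 and ANXA7 were closer between the sets, as ratios, than those of ANXA11, ANXA6, ANXA9 and ANXA2R. ANXA11, a partner of S100A6 on membranes, was 133, 202 and 353 TPM and 90.3, 136 and 216 TPM. ANXA6, the annexin with a doubled core, was 6.80, 15.3 and 41.9 TPM and 6.99, 20.3 and 35.6 TPM. ANXA9, which lacks functional calcium sites, was 0.782, 1.47 and 3.89 TPM and 1.97, 3.21 and 4.41 TPM, and it lay apart without Panc-1 3. ANXA2R was 1.10, 1.67 and 2.6 TPM and 2.56, 5.24 and 7.0 TPM. For it, 13 of 14 SMAD4-expressing libraries lay above all SMAD4-null ones, and the ranges lay apart with TMM or DESeq2 scaling.

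The remaining members were low. S100A1, an S100 protein best known from heart and skeletal muscle, was 1.10, 1.86 and 4.28 TPM and 1.12, 2.04 and 3.74 TPM, with overlap. S100A5 and S100Z reached 1 TPM in SMAD4-expressing libraries only, at most 2.25 and 1.75 TPM, on at most 18.5 and 18.6 counts. S100A12, S100A7A, S100B, ANXA13 and S100G stayed under 1 TPM in all 26 libraries. S100G, the intestinal calbindin, had no count in any library, and S100B, the glial S100 protein, was at most 0.529 TPM. At this depth such levels do not show that the genes are silent.

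The members together made up 1.21%, 1.51% and 1.93% of the TPM of a library in the SMAD4-null set and 1.03%, 1.34% and 1.97% in the SMAD4-expressing set. The S100 genes alone held a median of 1.05% and 1.02%, although different members supplied it. S100A2 gave a median of 50.5% of the S100 transcripts in the SMAD4-null libraries, and S100A6 gave 68.2% in the SMAD4-expressing libraries. For the annexins the medians were 0.431% and 0.305% of TPM, with ANXA2 first in both sets at 53.3% and 71.2% of the annexin transcripts. The ranges of the S100 share overlapped between the sets. Those of the annexin share overlapped through Panc-1 4 at 0.310%, since the other 11 SMAD4-null libraries held 0.359% or more and the highest SMAD4-expressing library held 0.349%.

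**Figure D3:**
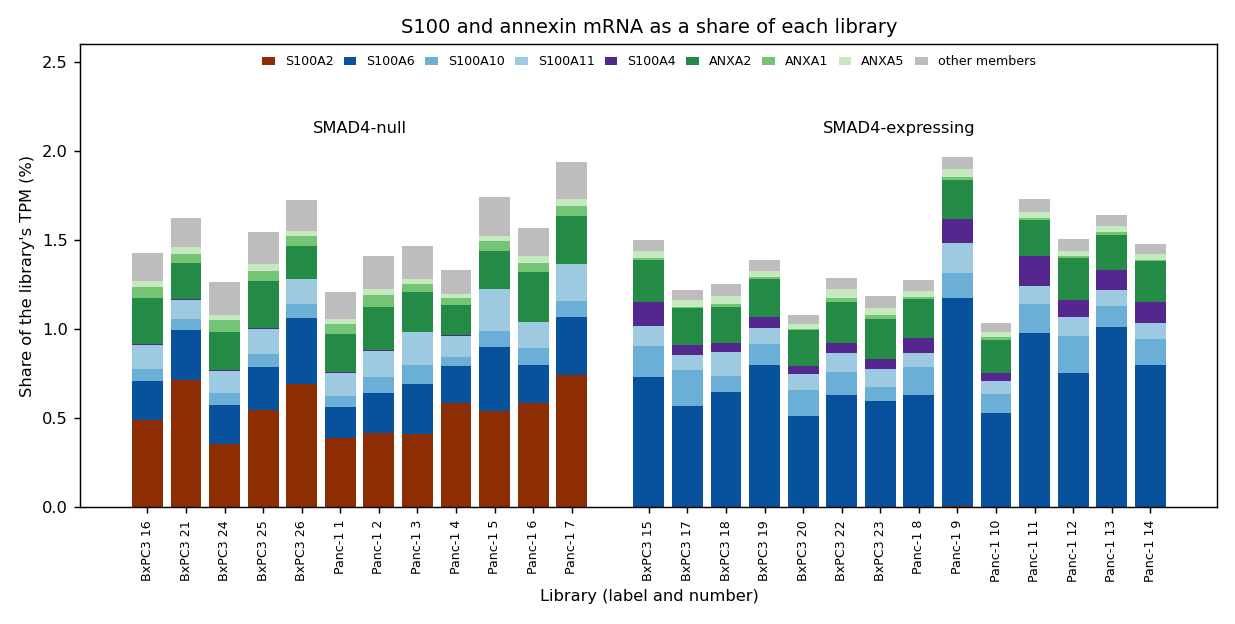
Share of each library's TPM held by S100 and annexin genes, in percent on an axis from 0, as stacked bars for 26 libraries named by label and number, SMAD4-null on the left. The bars reach 1.03% to 1.97%. The brown block of S100A2 fills much of each SMAD4-null bar and is too thin to see in most SMAD4-expressing bars, where the dark blue block of S100A6 is largest.

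In order of median level, the SMAD4-null libraries gave S100A2, S100A6, ANXA2, S100A11, S100A10, ANXA1 and ANXA5. S100A2 was above S100A6 in 12 of 12 libraries, but S100A6 was above ANXA2 in only 7 of 12, so these neighbors in the order were not separated beyond their spread. S100A11 was above S100A10 in 12 of 12 libraries with ranges apart. In the SMAD4-expressing libraries the order was S100A6, ANXA2, S100A10, S100A11, S100A4 and ANXA5. S100A6 was above ANXA2 in 14 of 14 libraries with ranges apart, and S100A11 was above S100A4 in 9 of 14. From S100A16 to S100A13 in the SMAD4-null set, that is S100A16, ANXA8, ANXA11, ANXA3 and S100A13, neighbors exchanged places in 4 to 7 of 12 libraries.

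The spread between libraries of the same set was set beside the quantification error. The SD of log2(TPM + 1) over libraries had a median of 0.35 over the 27 members with a median of at least 1 TPM in the SMAD4-null set, against 0.30 over all such genes, and 0.36 over 21 members in the SMAD4-expressing set, against 0.29. Each of these members varied over 2 times as much as kallisto's resamples of the reads of single libraries, as did 91.3% of all genes in either set. That error leaves out culture, RNA extraction and library preparation, so differences between clones cannot be told apart from these without repeat libraries. In the SMAD4-null set S100A8 (SD 1.88), S100P (1.26), S100A9 (1.11), ANXA10 (0.95) and ANXA6 (0.78) varied most, and ANXA1 (0.18) and ANXA7 (0.19) least. In the SMAD4-expressing set S100P (0.75), ANXA6 (0.73), ANXA8 (0.72), S100A4 (0.66) and S100A16 (0.63) varied most, and ANXA2 (0.11) least. S100P and ANXA6 were thus among the most variable members of both sets.

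Pairs of members that bind each other or lie next to each other were compared within each set, 12 relations in all, by a two-sided permutation test of log2(TPM + 1) with 100000 permutations and Benjamini-Hochberg adjustment over the 12. For S100A8 and S100A9 in the 12 SMAD4-null libraries, Pearson's r was 0.805 (permutation p = 0.00154, adjusted p = 0.00924) and Spearman's rho was 0.817 (permutation p = 0.00177, adjusted p = 0.0106). Without BxPC3 26 and BxPC3 21, the libraries farthest from the median of S100A8, r was 0.720 (adjusted permutation p = 0.117), and without BxPC3 26 alone r was 0.719 (adjusted permutation p = 0.0674), so the call rested on that library. Within the 7 libraries labelled Panc-1 r was 0.622 (exact permutation p = 0.140), and no correlation was computed within the 5 labelled BxPC3, under the minimum of 6 libraries used for a correlation. Both genes were measured in the same libraries, and S100A8 rested on few counts.

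For S100A4 and S100A6 in the 14 SMAD4-expressing libraries, r was 0.818 (permutation p = 0.00042, adjusted p = 0.00504) and rho was 0.798 (permutation p = 0.00102, adjusted p = 0.0106). Without Panc-1 11 and BxPC3 15, the libraries farthest from the median of S100A4, r was 0.852 (adjusted permutation p = 0.00468). Leaving out each library in turn gave r from 0.790 to 0.865. Within the 7 libraries labelled Panc-1 r was 0.874 (exact permutation p = 0.0107), and within the 7 labelled BxPC3 r was 0.507 (exact permutation p = 0.313). These within-label p-values were not adjusted, so the Panc-1 value cannot be read as passing the threshold for adjusted p. The BxPC3 value did not pass it even without adjustment. Whether the labels differ in this relation was not tested. In the SMAD4-null libraries the same pair gave r = -0.0674 (adjusted permutation p = 0.907).

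**Figure D4:**
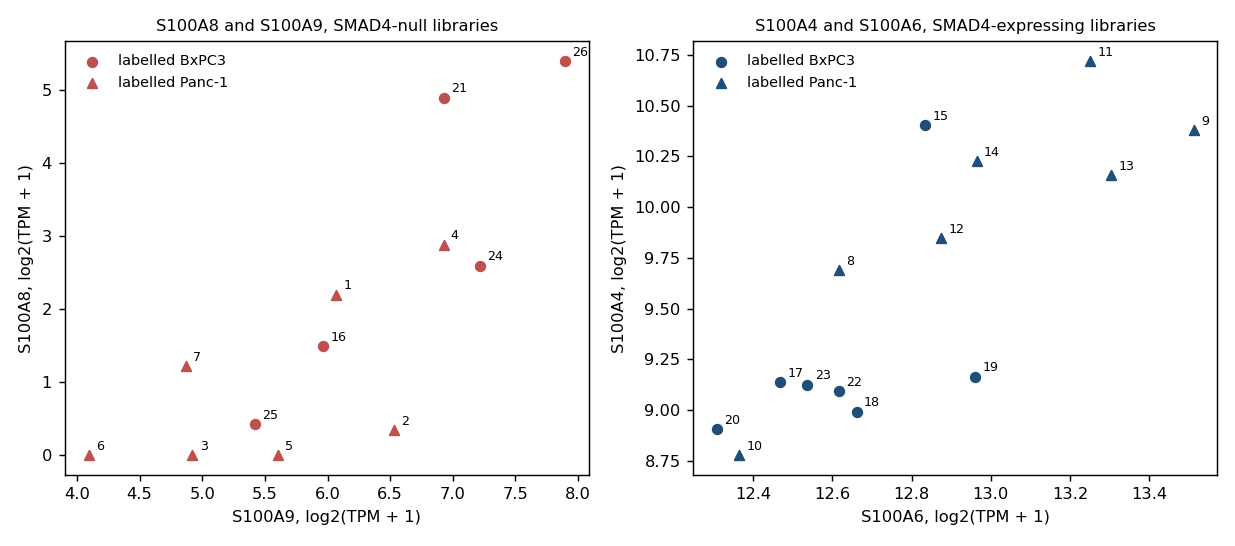
Left, S100A8 against S100A9 in the 12 SMAD4-null libraries, and right, S100A4 against S100A6 in the 14 SMAD4-expressing libraries, both on log2(TPM + 1) axes that do not start at 0, with 1 point per library and its number beside it. Circles are labelled BxPC3 and triangles Panc-1. On the left BxPC3 21 and BxPC3 26 stand highest, and on the right most libraries labelled BxPC3 lie low together and most labelled Panc-1 lie higher, with BxPC3 15 and Panc-1 10 on the other side.

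The other relations did not pass the threshold. S100A10 and ANXA2 gave r = 0.470 (adjusted permutation p = 0.373) in the SMAD4-null and 0.312 (adjusted permutation p = 0.430) in the SMAD4-expressing libraries. S100A11 and ANXA1 gave -0.0165 (adjusted permutation p = 0.960) and 0.452 (adjusted permutation p = 0.373), and S100A6 and ANXA11 gave 0.423 (adjusted permutation p = 0.406) and 0.0976 (adjusted permutation p = 0.907). Of the 1q21 neighbors, S100A13 and S100A16 gave 0.338 (adjusted permutation p = 0.430) and 0.0821 (adjusted permutation p = 0.907), and S100A14 and S100A16, compared in the SMAD4-null libraries, gave 0.337 (adjusted permutation p = 0.430). With 12 or 14 libraries, relations of this size were not distinguished from none.

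The comparison that the labels give is that of libraries labelled Panc-1 with those labelled BxPC3. As the labels did not match the SMAD4 transcript, a lack of calls between them does not show that the lines are alike. The comparison was tested with edgeR's quasi-likelihood test and Benjamini-Hochberg adjustment. A call needed an adjusted p under 0.05 together with a log2 fold change beyond 1 in size. The p-values measure the spread between these clones. In the fit of all libraries this spread included the difference between the SMAD4 sets, which makes a label difference harder to detect. Over all 26 libraries none of 26 members tested was called, as was none of 16008 genes (0.0%). At an unadjusted p under 0.05 there was 1 member, S100A1, and 2.29% of all genes. DESeq2 called no member and 2 of 29052 genes, and limma called no member and no gene. S100A1 was lower under the Panc-1 label by 0.62 on the log2 scale (edgeR p = 0.0027, adjusted p = 1.00).

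Within the SMAD4-null libraries edgeR called none of 27 members and 0.0% of all genes, while 5 members and 11.4% of all 16124 genes had an unadjusted p under 0.05. S100A1 was 2.04 to 4.28 TPM in the 5 libraries labelled BxPC3 and 1.10 to 2.03 TPM in the 7 labelled Panc-1. The ranges lay just apart, and the edgeR log2 fold change, Panc-1 label minus BxPC3 label, was -0.999 (adjusted p = 0.404). DESeq2 called this member alone, 1 of 34 members it tested, at -1.02 (adjusted p = 0.0122), and it called 15 of 26919 genes (0.0557%), while limma called none. The other 4 members were S100A8 at -3.31 (edgeR adjusted p = 0.405), S100A9 at -1.11 (edgeR adjusted p = 0.433), S100A3 at -0.63 (edgeR adjusted p = 0.438) and S100A11 at 0.40 (edgeR adjusted p = 0.416).

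Within the SMAD4-expressing libraries DESeq2 called no member and 1 of 26120 genes, and limma called no member and no gene. There edgeR called none of 21 members and 0.0% of all genes. At an unadjusted p under 0.05 there were 2 members, against 4.62% of all 15161 genes: S100A4 at 0.72 and S100A6 at 0.40 on the log2 scale, Panc-1 label minus BxPC3 label (both edgeR adjusted p = 0.982). The difference between the label effects of the sets was itself tested as an interaction in edgeR and called none of 29 members and 0.0% of all genes. S100A4 alone had an unadjusted p under 0.05 there, at an interaction of 1.02 on the log2 scale (edgeR adjusted p = 0.619), against 7.77% of all 17456 genes.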

How the data were processed

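Messenger RNA of 26 SCDCLs was enriched by poly-A selection and sequenced from both ends with strand kept. The authors quantified reads with kallisto 0.46.1 (submitters' processing notes) against Ensembl GRCh38.103 and deposited 1 table with gene-level TPM, estimated counts (expected counts, which rest on TPM and transcript length and sum to the depth of the library) and 30 resamples of the estimated counts. Of these, 5 resamples per library were used, to give the quantification error, and 676 per-sample columns were not used. Symbols and positions came from GENCODE 44, which matched 36315 of 41078 gene identifiers. Promoter windows came from RefSeq.

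Libraries were grouped by label, and by SMAD4 below or at least 1 TPM. The members, the partner list and the other lists were chosen with earlier results of these data known. Members with a median of at least 1 TPM in either set are described with values in both sets, the others by range and count. SCDCLs are named where an end of a set's range lies over 2-fold from the next library, for medians of at least 5 TPM; those beside S100A4, S100A8 and the leave-one-out results were named after their values were seen.

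Estimated counts were rounded for edgeR 4.0.16 (TMM, filterByExpr, quasi-likelihood test) and DESeq2 1.42.0, and limma 3.58.1 used log2(TPM + 1), in R 4.3.3. The other steps ran in Python 3.11.15 (scipy 1.17.1, pandas 2.3.3, numpy 2.4.6). The sets of the study that rest on gemcitabine response are not in the labels and were not compared. Alternatives were CPM with TMM factors, DESeq2 size factors, pseudocounts of 0.1 and 5, no filter or a filter of 5 TPM, the SMAD4 set as covariate, and leaving out each library. Tests were tried on simulated data. Floors and differences at few counts cover counting error only, without the error of assigning reads to similar transcripts.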

Additional observations from a re-analysis of the deposited data

How the results depend on the processing

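The number of members with ranges apart was 13 to 15 of 30 when each library was left out in turn. The share of all genes then was 26.7% to 27.7%. With TMM or DESeq2 scaling it was 14 of 30 members, beside 27.3% and 27.4% of all genes. Without a filter on low values it was 13 of 34 members (38.2%), beside 17.3% of all genes. With a filter of 5 TPM it was 13 of 25 members (52.0%), beside 31.2% of all genes. S100P joined without Panc-1 6 or Panc-1 9, ANXA9 without Panc-1 3, S100PBP without BxPC3 24 or Panc-1 10, and ANXA2R without BxPC3 24 or Panc-1 9. Within the SMAD4-null libraries DESeq2 called 1 member (and 0.0557% of all genes) between the labels where edgeR called 0 (0.0%), and leaving out each library gave 0 to 0 within either set. With the SMAD4 set as a covariate over all libraries the count was also 0. There 3 members and 7.52% of all genes had an unadjusted edgeR p under 0.05, against 1 member and 2.29% without the covariate. The correlation of S100A11 and ANXA1 in the SMAD4-null libraries turned to 0.122 with TMM scaling, and that of S100A4 and S100A6 there turned to 0.028 with TMM scaling and to 0.222 without the 2 farthest libraries; none of these passed the threshold. Chosen after seeing the data, the lower bound for S100A8 was 57.8 to 118-fold and that for ANXA10 13951 to 17718-fold with each SMAD4-null library left out, and leaving out each library in turn gave r from 0.719 to 0.873 for S100A8 and S100A9 in the SMAD4-null libraries and from 0.790 to 0.865 for S100A4 and S100A6 in the SMAD4-expressing ones. S100A8 and S100A9 were at 0.720 without the 2 farthest libraries and at 0.622 within the Panc-1 label, and S100A4 and S100A6 at 0.507 within the BxPC3 label, all no longer past the threshold, and fewer libraries were tested in each. Of 81 other values, log2 ratios of single members, 62 moved by less than the spread between libraries and 19 by more. No paired analysis was possible because the labels share no library number between BxPC3 and Panc-1. Depth limited S100A5, S100A7, S100A8, S100Z and the members under 1 TPM.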

Other observations

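Genes known to act with S100 proteins and annexins, as receptors, ligands or substrates, formed a list of 24, of which 20 reached 1 TPM in a library. Of these, 6 were higher in every SMAD4-null library than in any SMAD4-expressing library, none was higher in the reverse direction and 14 overlapped, beside 13.2% and 13.3% of all genes. TLR4, a receptor of calprotectin, was 4.50, 8.44 and 22 TPM (lowest, median and highest) in the SMAD4-null and 0.0186, 0.0649 and 1.12 TPM in the SMAD4-expressing libraries. AGER, the receptor that S100P and S100A4 bind, was 1.02, 2.32 and 4.95 against 0.118, 0.604 and 1.33 TPM, with overlap. BSG, a receptor of S100A9, was above 611 TPM in every library.

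Of the plasminogen system that S100A10 and annexin A2 bring to the cell surface, the activator PLAT was 34.3, 64.8 and 197 TPM against 0.127, 0.373 and 0.968 TPM. The urokinase receptor PLAUR was 30.5, 133 and 369 against 2.82, 5.38 and 20.1 TPM. Urokinase itself, PLAU, overlapped at 125, 414 and 856 against 133, 249.5 and 849 TPM. AHNAK, a giant scaffold bound by S100A10 and annexin A2, overlapped at 132, 177 and 296 against 137, 367 and 587 TPM. DYSF, EZR and PLA2G4A were the other members of the list that lay higher in the SMAD4-null libraries, and PLA2G4A, a phospholipase that annexins restrain, was at most 0.0469 TPM in the SMAD4-expressing ones. No gene of this list was called between the labels by edgeR's quasi-likelihood test in any of the 4 comparisons. Tested were 20 over all libraries, 19 in the SMAD4-null set, 16 in the SMAD4-expressing set and 20 for the interaction, and 0, 2, 2 and 1 had an unadjusted p under 0.05, against 2.29%, 11.4%, 4.62% and 7.77% of all genes. The gene of the interaction was PLAT (edgeR adjusted p = 0.612). The list was chosen with earlier results of these data known.

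Other cell type markers were read beside the members. Of the epithelial genes, EPCAM was 239 to 424 TPM in the SMAD4-null and 7.49 to 25.5 TPM in the SMAD4-expressing libraries. KRT8, KRT18 and KRT19 were above 298 TPM in every library and overlapped. The medians of KRT8 (461 against 2053 TPM) and KRT18 (521 against 1598 TPM) were lower in the SMAD4-null libraries, and that of KRT19 (1966 against 1220 TPM) was higher. Of 3 endothelial genes, CDH5 was 1.04 to 13.6 TPM against 0 to 0.0427 TPM, PECAM1 overlapped and VWF stayed at or below 0.473 TPM. The 3 fibroblast genes DCN, LUM and PDGFRB overlapped and summed to 0.191 to 1.45 TPM against 0.509 to 3.63 TPM, with medians of 0.726 against 0.171 TPM for DCN, 0 in both for LUM and 0.0894 against 1.05 TPM for PDGFRB.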
